A study of Rattus norvegicus with 23 samples.

Results

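Cells that had been pulled out of a 3D rat liver culture as its Kupffer cell (KC) fraction were compared with KCs kept as monolayers, over 5 of the 23 arrays of the series. The KC fraction (KC_3D_HLK_d12) had 2 arrays, which are all there are, and the KC monolayers (KC_pre_3D_HLK_d3) had 3. Every gene with a named probe set was compared, 14217 in all, with 1 probe set per gene. The genes were divided by their level in hepatocytes cultured alone as a monolayer (HM_d12, 3 arrays), so that genes that hepatocytes express strongly could be described apart from the rest.

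The 3DHLK model was assembled from a hepatocyte layer, a detachable polymer film above it, and liver sinusoidal endothelial cells (LSECs) and KCs seeded on the film. No drug or gene change was applied to any group used here. The hepatocytes and LSECs came from female Lewis rats, while the KCs were bought as cryopreserved rat cells whose donor sex and strain are not given in the sources used here, and neither is the age of any animal. On day 12 the model was exposed to magnetic beads with the SE-1 antibody for LSECs and then to beads with an antibody to CD163 for KCs. The hepatocytes (Hep_3D_HLK_d12) and the LSEC fraction (LSEC_3D_HLK_d12) of the model had 3 arrays each. The KC fraction had 2 because only these passed the study's check of RNA quality. The monolayers were collected on day 3 without a sort, and the labels place them before the 3D culture, so the culture, the day and the sort cannot be told apart in this comparison. Sex-linked genes, given below, also differed between these groups, so the sex of the cells cannot be told apart from these differences either. Nothing in the labels says that arrays of a group came from separate cultures or animals, so p-values measure the spread between these arrays.

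KCs are the macrophages that live in the liver sinusoids, where they take up particles, old red cells and bacterial products from portal blood. They depend on signals through the receptor encoded by Csf1r, and they kill and present what they engulf with the phagocyte NADPH oxidase, lysosomal proteases and MHC class II. Hepatocytes in turn make most plasma proteins, clear ammonia through the urea cycle and carry out drug metabolism, while LSECs are a fenestrated endothelium with scavenger receptors of their own.

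The KC fraction lay far below the KC monolayers in the macrophage genes that its label calls for. Cd163, whose product the beads bind, was at log2 values of 7.03 and 7.26 on its 2 arrays and at 11.06, 10.30 and 10.54 in KC monolayers. Adgre1, which encodes a macrophage surface receptor, was at 4.81 and 5.95 in the KC fraction against 12.998, 12.84 and 12.90. Cd5l, a protein that tissue macrophages secrete, was at 6.18 and 6.91 against 14.22, 14.15 and 14.25. In all 3 genes both KC fraction arrays lay far below every monolayer array, with differences of -3.48 ± 0.21, -7.53 ± 0.23 and -7.66 ± 0.23 (log2, SE; adjusted p = 4.23e-12, 2.56e-17 and 2.04e-17 in limma). Csf1r was at 5.33 and 5.38 in the fraction, against 12.75, 12.13 and 12.56.

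Of 36 macrophage markers listed, 29 were measured, and 26 of them were lower in the KC fraction and none higher, beside 20.8% lower and 44.5% higher among all genes. The median difference over the 29 was -4.09, beside 0.27 over all genes. Their mean level was 7.39 and 7.61 on the 2 arrays of the fraction and 11.27 to 11.62 in the monolayers. It was 7.17 to 7.49 in HM hepatocytes, 7.44 to 7.57 in LSECs of the 3DHLK model and 7.94 to 8.27 in its hepatocytes. The fraction taken with the CD163 beads thus lay near the LSEC arrays, and the hepatocytes of the model were higher. Against HM hepatocytes 12 of the 29 markers were higher in the KC fraction and 4 lower (23.6% and 21.6% of all genes), and the median difference was 0.25. With all genes in 10 steps of HM level, the median difference from HM was 0.24 to 0.39 in the lowest steps. A median of this size is thus not particular to the markers. Against hepatocytes of the 3DHLK model 6 were higher and 19 lower (30.6% and 25.9% of all genes). Adgre1 was 0.83 above HM (adjusted p = 0.00638), at 4.81 and 5.95 against 4.53, 4.65 and 4.47. These are low values, and the difference came mostly from replicate 2 of the fraction. Cd5l was 1.57 above HM (adjusted p = 1.79e-05). It was at 6.18 and 6.91 in the fraction and at 6.995, 7.26 and 7.13 in hepatocytes of the 3DHLK model. Adgre1 was at 5.59, 5.89 and 6.42 in those hepatocytes. Cd68, a lysosomal glycoprotein of macrophages, was at 9.57 and 9.40 against a mean of 7.97 in HM. Csf1r and Tyrobp, the adaptor of many myeloid receptors, differed from HM by -0.32 and 0.03, neither passing the test (adjusted p = 0.262 and 0.914). In a bulk sample, fewer cells of a type and less RNA of that type per cell cannot be told apart.

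The 3 markers of the list that did not pass the test against the monolayers were Nr1h3, Ccr1 and Hmox1. Hmox1 encodes heme oxygenase, which breaks down heme in macrophages but is also induced by stress in other cells, and its levels of 13.17 and 13.25 lay among those of the monolayers, 13.56, 13.11 and 13.27. Its difference of -0.10 became -0.86 after cyclic loess and -0.43 when the arrays were centred on housekeeping genes, and it passed the test as lower under both. Of the 29 markers, 28 and 29 were lower under these scalings. In HM hepatocytes the mean of Hmox1 was 10.57. Cd14, the endotoxin co-receptor, was lower than in the monolayers (-0.93) and than in the LSECs of the same model (-0.83).

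**Figure D1:**
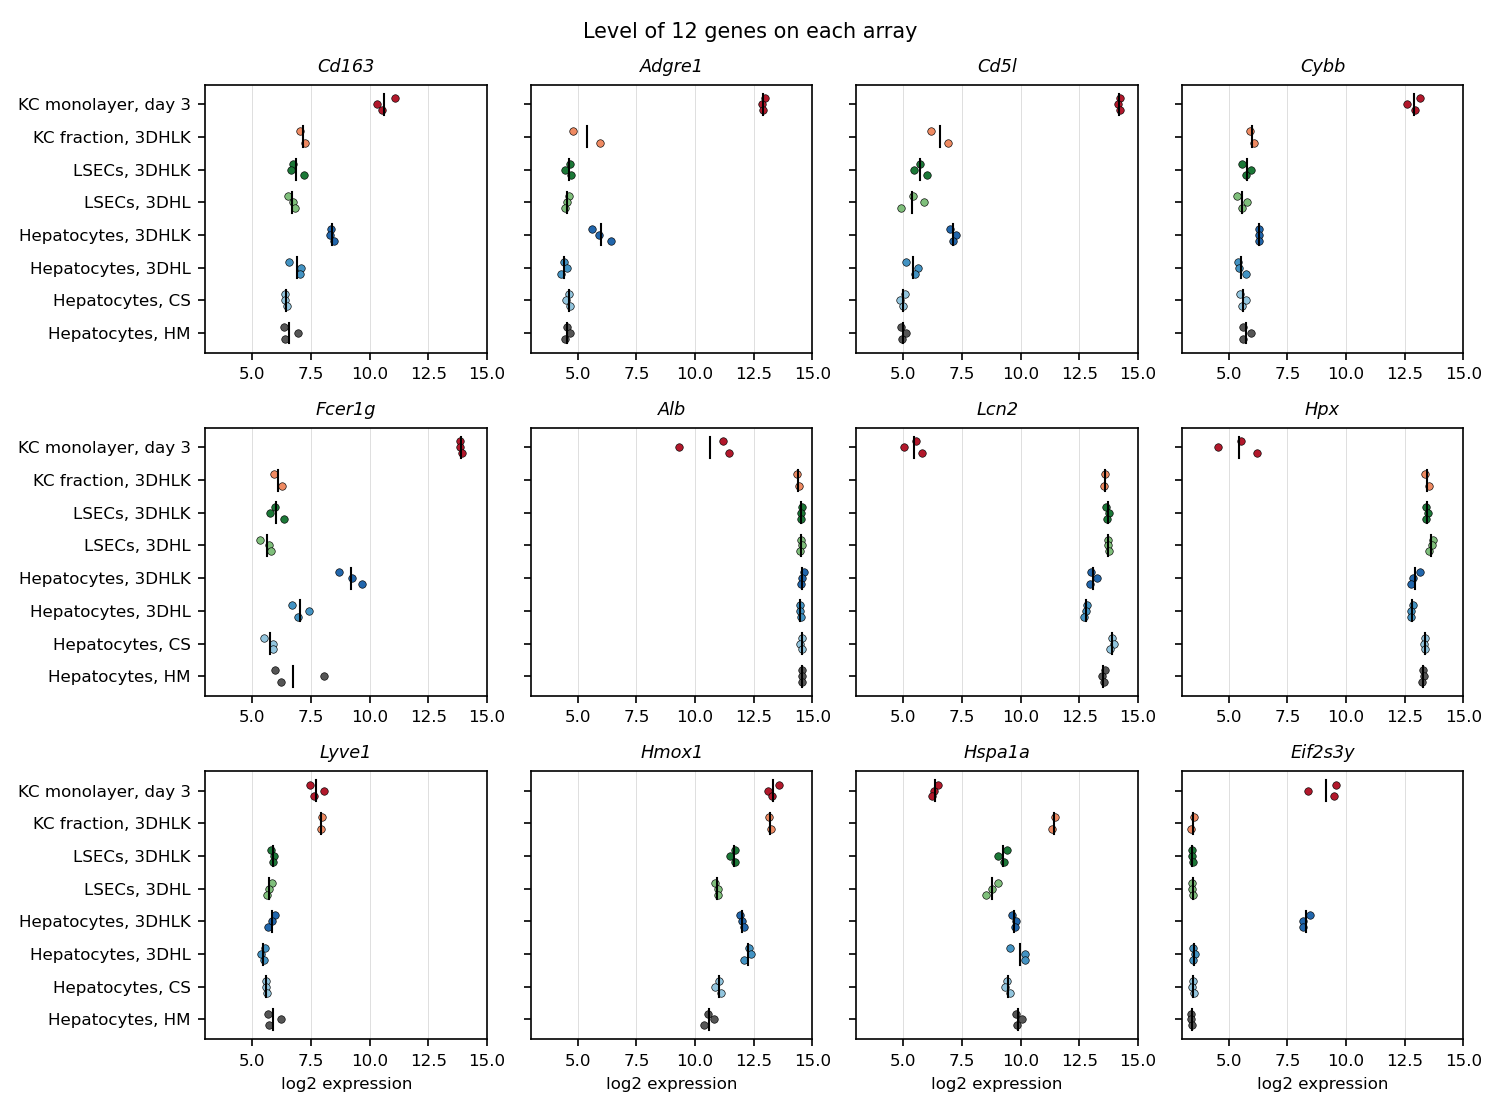
Log2 RMA value of 12 genes on each array (points, 1 per array; the bar is the group mean), with the 8 groups as rows. Cd163, Adgre1, Cd5l, Cybb and Fcer1g are high in KC monolayers and low in the KC fraction, where Cd163 and Fcer1g lie below the 3DHLK hepatocytes, Alb, Lcn2 and Hpx show the opposite, and Eif2s3y stands out on the monolayer arrays and on those of the 3DHLK hepatocytes.

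Sex-linked genes also set the KC fraction apart from the monolayers. Xist, the RNA that silences one X chromosome in females, was at 10.07 and 10.22 in the KC fraction and at 4.66, 4.58 and 3.90 in the monolayers. In hepatocytes of the 3DHLK model it was at 10.26, 9.96 and 10.11, beside the fraction. Eif2s3y, on the Y chromosome, was at 3.52 and 3.41 in the fraction, where the HM mean was 3.42, and at 9.56, 8.36 and 9.49 in the monolayers. It was at 8.27 ± 0.16 (SD, n = 3) in hepatocytes of the 3DHLK model, which thus had both signals, while the KC fraction had Eif2s3y at the HM level. Because of these values the arrays are called the KC fraction here after the sort, and no cell type is implied by the name. Whether the beads held KCs, or whether fractions were exchanged, was not tested, and this doubt touches each value of the KC fraction given here.

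Over all genes 6323 (44.5%) were higher in the KC fraction than in the monolayers and 2953 (20.8%) were lower, by limma with a Benjamini-Hochberg adjusted p under 0.05. The arrays of both groups did not overlap in 9176 genes (64.5%), 43.8% of all genes being higher and 20.7% lower in this way, and 65.2% were called in either direction. Replicates of the monolayers varied more than the rest, with a median SD over genes of 0.32 against 0.09 to 0.15 in the other groups, so a spread shared by all groups understates theirs. A fit to the 5 KC arrays alone called 4012 higher and 1893 lower, a fit with array weights per group called 4755 and 2137, and 3908 and 1776 genes were called by all 3 fits.

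Of the 3555 genes that were high in HM hepatocytes, a mean log2 value of at least 9.79 that one gene in 4 reached, 2296 (64.6%) were higher in the KC fraction and 509 (14.3%) lower, with a median difference of 0.72. Of the 10662 others, 4027 (37.8%) were higher and 2444 (22.9%) lower, with a median of 0.17. Stag2 and RT1-T24-4 lay just under the limit and Bet1l and Pnpla7 just above it, at 9.79 each. With the genes in 10 steps of HM level, the share of higher genes went from 10.8% in the lowest step to 70.3% in the highest, and the share of lower genes from 33.1% to 11.5%. This gradient depended on the scaling of the arrays. The median over all genes was 0.27 as deposited, 0.06 after cyclic loess, which removes any trend of a difference with signal level, and -0.05 when the arrays were centred on housekeeping genes. Of called genes, 68.2%, 52.5% and 47.6% were higher. After cyclic loess the medians of genes high and not high in HM were 0.08 and 0.06, with 1464 and 3271 genes higher and 1253 and 3033 lower. Centred on housekeeping genes they were 0.40 and -0.16.

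The largest differences kept their side under each scaling. Of 160 genes that were higher by 4 or more log2 units, 145 were high in HM hepatocytes, and of 134 that were lower by as much, 128 were not. After cyclic loess the counts were 93 of 100 and 147 of 159, and centred on housekeeping genes 118 of 126 and 173 of 183.

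**Figure D2:**
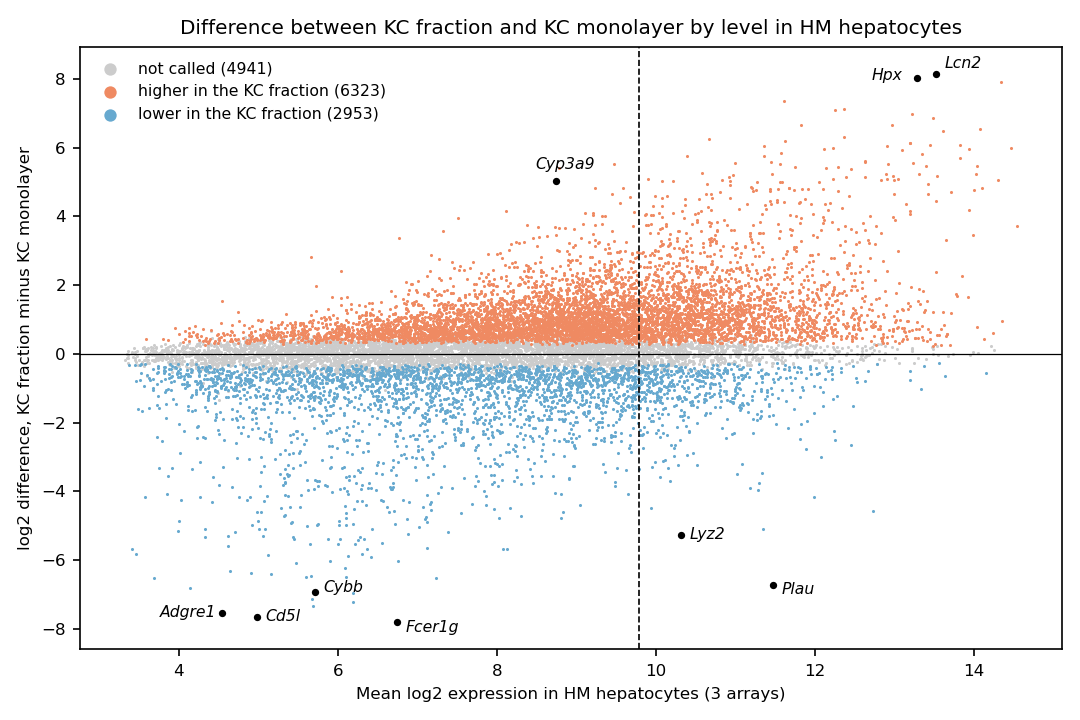
Log2 difference between KC fraction and KC monolayers for 14217 genes (vertical axis) against the mean log2 level in HM hepatocytes (horizontal axis), coloured by the call of limma, with the limit of 9.79 as a dashed line. Large positive differences lie at high HM levels and large negative ones at low levels, apart from a few genes such as Plau and Lyz2.

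**Figure D3:**
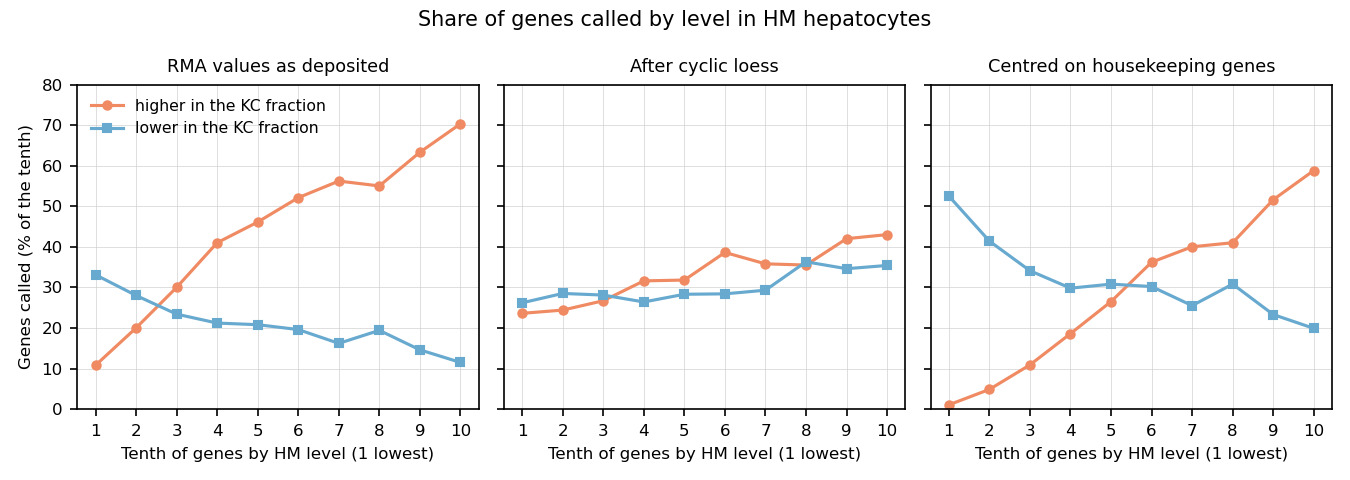
Share of genes called higher and lower in the KC fraction (percent) in 10 steps of HM level, under the deposited scaling and 2 others. The rise from 10.8% to 70.3% higher genes in the deposited values shrinks to 23.6% to 43% after cyclic loess and runs from 1.05% to 58.8% when the arrays are centred on housekeeping genes.

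Genes of hepatocytes led the rises. Lcn2, an acute phase protein that binds bacterial siderophores, was at 13.62 and 13.55 in the KC fraction and at 5.53, 5.04 and 5.80 in the monolayers, a difference of 8.13 ± 0.15 (SE, adjusted p = 3.43e-20). Hpx, which encodes the heme carrier hemopexin, was at 13.35 and 13.52 against 5.51, 4.53 and 6.22, and Orm1, an acute phase glycoprotein of plasma, at 14.14 and 14.17 against 7.05, 5.30 and 6.42. None of the 3 differed from HM hepatocytes by the test (0.05, 0.14 and -0.19, adjusted p = 0.799, 0.670 and 0.564). The other large rises among genes high in HM were Cyp2c22, the glucose transporter Slc2a2, Lurap1l, Inhca, Ccl9, Cyp4f1 and Sorbs2, from 7.35 down to 6.66. Slc2a2, at 11.33 and 11.58, was lower than in HM, at -0.91 (adjusted p = 3.68e-05), and Cyp2c22 was 1.52 above it (adjusted p = 4.77e-06).

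Albumin RNA was present in the monolayers too, and it varied there. Alb was at 14.33 and 14.44 in the KC fraction and at 11.18, 9.33 and 11.45 in the monolayers, where hepatocyte markers as a list were at 7.85, 7.21 and 7.84. Both measures were lowest on replicate 2.

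All 26 measured hepatocyte markers were higher in the KC fraction than in the monolayers, beside 44.5% of all genes. Their median difference was 5.05 (4.27 after cyclic loess and 4.73 centred on housekeeping genes). Of these markers 25 were high in HM, a class in which 64.6% of genes were higher, with a median of 0.72. Their mean level was 12.68 and 12.75 in the fraction, 12.79 to 13.01 in hepatocytes of the same model and 13.23 to 13.26 in its LSECs. The fraction thus held hepatocyte RNA at a level under that of the LSEC fraction, with 15 of 26 markers lower than there and 1 higher (9.73% and 5.35% of all genes). Apoa1, the main protein of high density lipoprotein, was at 13.78 and 13.93, with a difference of -0.23 from HM that did not pass the test (adjusted p = 0.135) and of -0.46 from the LSECs (adjusted p = 0.0125).

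Liver enzymes were higher than in the monolayers and mostly lower than in the other fractions of the model. Of 19 genes of the urea cycle and amino acid catabolism 18 were higher than in the monolayers (44.5% of all genes). Against LSECs of the model 17 were lower (9.73% of all genes). Arg1, the last enzyme of the urea cycle, was at 10.39 and 10.75 in the fraction, 6.50, 6.58 and 6.60 in the monolayers, and its differences from HM and the LSECs were -2.13 and -2.69 (adjusted p = 1.47e-10 and 1.91e-11). Tat, which starts tyrosine breakdown, differed from the monolayers by 6.30 and from HM by -0.19, the latter not passing the test (adjusted p = 0.451). Of 25 complement and coagulation factors 22 were higher and 2 lower, led by the complement regulator Cfi (5.42) and prothrombin, F2 (4.58). The 2 lower genes were Cfd (-3.46), the protease that starts the alternative pathway, and C6 (-1.49). Of these 25 factors 16 were lower than in HM (21.6% of all genes). In drug metabolism 20 of 26 genes of phase I were higher and 2 lower, and 20 of 29 of conjugation were higher and 5 lower. Among all genes 44.5% were higher and 20.8% lower. Of the 29 conjugation genes 16 were high in HM, a class in which 64.6% of genes were higher. The fraction stood under hepatocytes of its own model in 19 genes of each of these 2 drug metabolism lists, beside 25.9% of all genes. Adh1c, an alcohol dehydrogenase, led phase I with 5.84, and Ugt2b35, a glucuronosyltransferase, led conjugation with 6.05 while its difference from HM was -2.01.

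The promoters of the largest rises and falls are given here because the genes move as groups. RefSeq promoters (GRCr8) were held for 9 of the 10 largest rises among genes high in HM and for 8 of the 10 largest falls among the others. The 250 bases before the start were searched on both strands for GAGGAA, the core that the macrophage factor PU.1 binds, and for GTTAAT, part of the site of the hepatocyte factor HNF1. GAGGAA was found in 6 of the 8 promoters of falling genes (Cd5l, Adgre1, Csf1r, Cybb, Cd53 and Siglec5) and in 1 of the 9 of rising genes, beside 23.1% of 11733 compared genes with a promoter. GTTAAT was found in 1 of 8 and in 2 of 9, beside 4.32%. A match is a run of letters and not a binding site, and the members were too few for a share to be read as more. The promoters of Cd5l and Adgre1, the leading falls with an entry, and of Lcn2 and Hpx, the leading rises, are shown 5′ to 3′ on the strand of the gene, with GAGGAA or its reverse complement TTCCTC in capitals.
Cd5l (GRCr8, chr2:175088665-175088914, plus strand): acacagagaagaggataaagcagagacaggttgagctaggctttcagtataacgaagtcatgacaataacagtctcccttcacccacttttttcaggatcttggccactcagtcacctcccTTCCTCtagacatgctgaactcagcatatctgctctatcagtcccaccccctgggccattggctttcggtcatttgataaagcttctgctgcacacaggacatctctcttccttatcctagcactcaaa
Adgre1 (GRCr8, chr9:2329190-2329439, plus strand): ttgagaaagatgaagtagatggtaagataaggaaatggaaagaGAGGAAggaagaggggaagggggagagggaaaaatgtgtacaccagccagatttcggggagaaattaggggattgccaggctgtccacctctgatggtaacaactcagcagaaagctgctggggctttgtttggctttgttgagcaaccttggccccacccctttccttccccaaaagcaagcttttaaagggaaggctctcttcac
Lcn2 (GRCr8, chr3:36081781-36082030, minus strand): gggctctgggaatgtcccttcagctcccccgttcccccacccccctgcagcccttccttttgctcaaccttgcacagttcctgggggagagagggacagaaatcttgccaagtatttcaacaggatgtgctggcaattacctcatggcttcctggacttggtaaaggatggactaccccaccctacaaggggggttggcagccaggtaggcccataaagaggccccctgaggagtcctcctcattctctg
Hpx (GRCr8, chr1:169352156-169352405, minus strand): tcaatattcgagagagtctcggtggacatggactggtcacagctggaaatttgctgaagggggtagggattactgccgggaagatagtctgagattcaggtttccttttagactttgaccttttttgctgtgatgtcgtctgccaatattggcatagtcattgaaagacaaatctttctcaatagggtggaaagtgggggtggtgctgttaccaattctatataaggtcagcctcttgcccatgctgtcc

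Among genes high in HM hepatocytes the largest fall was that of Plau, the urokinase protease that activates plasminogen. It was at 6.26 and 5.83 in the fraction, 12.66, 12.71 and 12.99 in the monolayers and 11.48 ± 0.19 (SD, n = 3) in HM. Vim, the intermediate filament of mesenchymal cells and macrophages, was at 8.21 and 8.31 against 13.11, 12.48 and 12.89, with 12.73 in HM and 13.44 in hepatocytes of the 3DHLK model. Timp2, an inhibitor of matrix proteases, was at 8.03 and 8.10 against 13.26, 13.12 and 13.13, with 11.35 in HM. All 3 were thus also far below HM, at -5.43, -4.48 and -3.29, and Plau and Timp2 did not differ from the LSECs by the test (0.62 and 0.30, adjusted p = 0.0760 and 0.564). Of the 509 genes of this class 362 were lower in the fraction than in HM as well and 16 higher, with a median of -0.66 against HM and -0.04 against the LSECs, beside 21.6% lower and 23.6% higher than HM among all genes. Since these genes were chosen for a high HM value and a low one in the fraction, a level below HM is partly fixed by that choice. The other large falls were Lyz2, Abcg1, Rgs2, Maf, Dpysl2, Scd2 and Sparc, from -5.27 to -3.70. Lyz2, the lysozyme of macrophages, varied in HM with an SD of 1.58 over 3 arrays, and for Maf 1 of 2 other probe sets was called the other way.

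Vim and Sparc also stand in the list of stellate cell and fibroblast markers. Of 22 measured, 9 were lower in the KC fraction than in the monolayers and none higher (20.8% and 44.5% of all genes). Against hepatocytes of the same model 17 were lower (25.9% of all genes), with a median of -3.65. Their mean was 7.08 and 7.09 in the fraction, 8.05 to 8.36 in the monolayers, 7.23 to 8.87 in HM, 10.19 to 10.47 in hepatocytes of the 3DHLK model and 6.60 to 6.92 in its LSECs. Of 26 genes of matrix and matrix proteases 12 were lower and 6 higher than in the monolayers, the latter led by fibronectin, Fn1 (4.19), which hepatocytes secrete into plasma. Of 9 cholangiocyte markers 3 were higher and 2 lower.

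**Figure D4:**
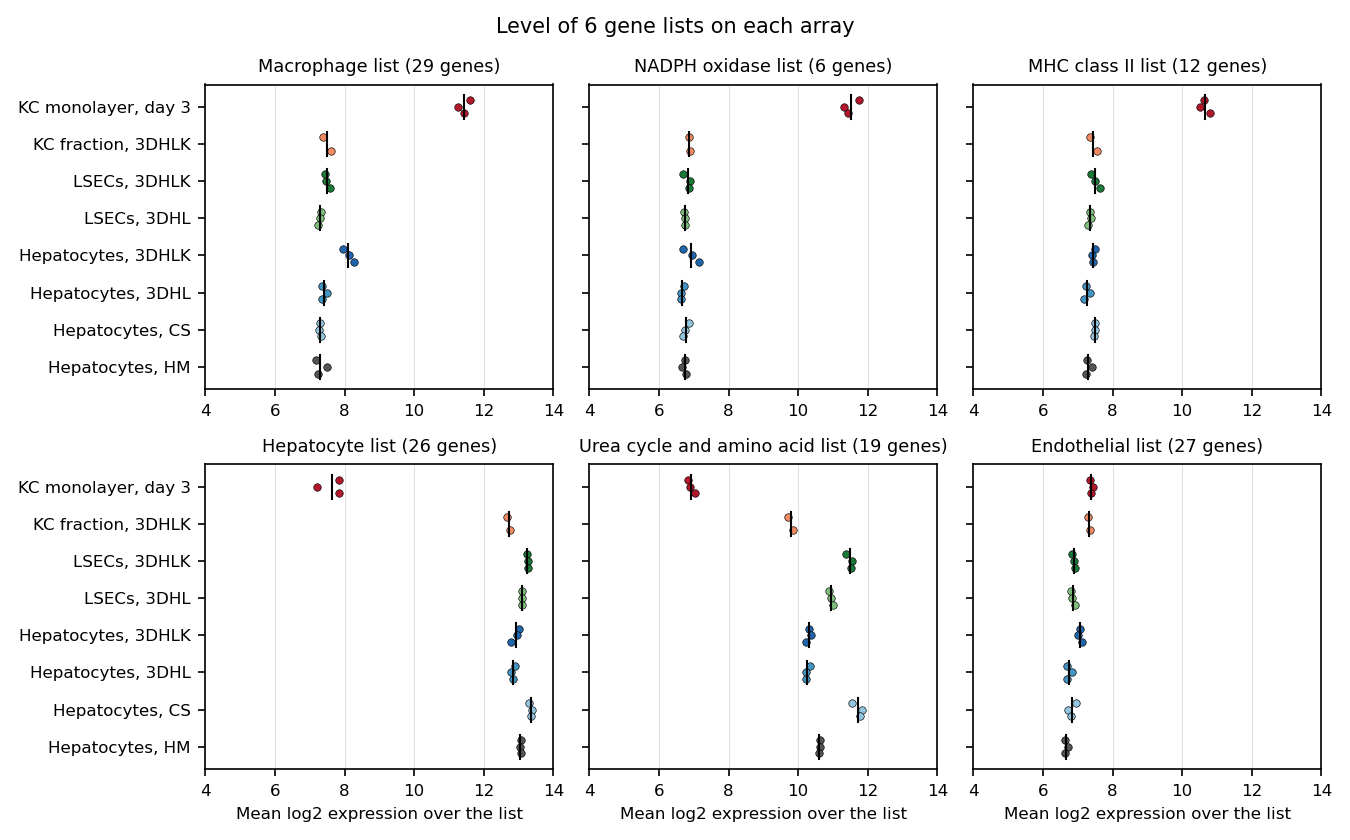
Mean log2 level of 6 gene lists on each array (points; the bar is the group mean), with the 8 groups as rows. The KC fraction lies beside the LSEC arrays in the macrophage, NADPH oxidase and MHC class II lists, between KC monolayers and LSECs in the urea cycle list, and beside KC monolayers in the endothelial list.

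The largest fall among genes not high in HM was that of Fcer1g, the signalling chain shared by several Fc receptors. It was at 5.93 and 6.26 in the KC fraction and at 13.87, 13.86 and 13.95 in the monolayers, a difference of -7.80 ± 0.39 (SE, adjusted p = 1.27e-13). After Cd5l and Adgre1 came Aif1, a calcium-binding protein of macrophages, the chemokine receptor Cxcr4, Csf1r, the phospholipase Pla2g4a, Cybb, the tetraspanin Cd53 and the inhibitory lectin Siglec5, from -7.33 to -6.53. Cxcr4 and Cd5l were above the LSECs by 0.59 and 0.82 (adjusted p = 0.0447 and 0.0167), while Cybb and Siglec5 did not pass that test (0.21 and 0.23, adjusted p = 0.468 and 0.338). The differences of these 10 genes from HM ran from -1.54 for Pla2g4a to 1.57 for Cd5l.

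The working parts of a phagocyte were lower together. All 6 measured genes of the NADPH oxidase were lower, with a median of -4.51, beside 20.8% lower and 44.5% higher among all genes. Cybb, its catalytic subunit, was at 5.89 and 6.06 against 13.15, 12.58 and 12.95, and Ncf1, a cytosolic subunit, at 6.65 and 6.71 against 12.28, 12.00 and 12.01. None of the 6 differed from LSECs of the model by the test, at differences of -0.19 to 0.22. Few of all genes did, with 5.35% higher and 9.73% lower. Of 12 genes of MHC class II antigen presentation 10 were lower. Cd74, the invariant chain, was at 6.69 and 7.0 against 11.50, 12.96 and 13.13, and the protease Ctss, which cleaves it, at 5.93 and 6.18 against 12.80, 12.27 and 12.66. Of 23 leukocyte integrins, receptors and signalling genes 22 were lower and 1 higher, Cd52 (0.44), which was not called by the fit to the 5 arrays (adjusted p = 0.186). Of 23 lysosomal genes 20 were lower with a median of -1.25, and the 2 that were higher were Lamp2 (1.09) and Ctsl (0.43). The lysosome is shared by all cells of the culture, and 19 of these 23 genes were high in HM. Ctsl turned to -0.49 after cyclic loess.

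Of 28 genes of Fcε and Fcγ receptor signalling 22 were lower and 3 higher, beside 20.8% and 44.5% of all genes. The kinases that act on the Fc chain were lower, Lyn (-2.46), Fyn (-2.63) and Syk (-3.25), and so were the adaptor Gab2 (-3.04) and the PI3-kinase subunits Pik3r1 (-1.91) and Pik3cd (-1.67), with adjusted p-values of 4.00e-08 or lower. Syk, as one example, was at 6.72 and 6.90 against 9.87, 9.81 and 10.49. Of these 7 genes with Fcer1g, only Pik3r1 differed from the LSECs of the model by the test, at -0.98 (adjusted p = 4.12e-05), and only it differed from HM, at -0.58 (adjusted p = 0.00314). Against hepatocytes of the same model Fcer1g, Fyn and Pik3cd were lower, at -3.12, -1.97 and -1.12 (adjusted p = 1.63e-06, 7.03e-08 and 3.01e-05), and Lyn was higher at 0.45 (adjusted p = 0.0289). Fcer1g was at 8.71, 9.27 and 9.67 on the 3 arrays of those hepatocytes. The genes of the list that were higher were Plcg1 (1.17), Mapk13 and Fcgr2b, the inhibitory Fcγ receptor that LSECs carry. Of 20 genes of endotoxin and danger sensing 12 were lower, led by Tlr8 (-5.30) and Tlr7 (-4.86), and 2 higher, led by Lbp (5.23), the endotoxin-binding protein that hepatocytes secrete.

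Cytokines that promote and that restrain inflammation were among the lower genes. Il1b, the main cytokine of the inflammasome, was at 6.08 and 6.55 against 12.97, 12.67 and 12.70, a difference of -6.46 ± 0.16 (SE, adjusted p = 9.37e-19), and Ptgs2, which starts prostaglandin synthesis, was lower too (-5.81). Tnf was at 7.08 and 7.46 against 8.71, 8.09 and 8.47 (adjusted p = 1.10e-05), and Il6 at 4.24 and 4.66 against 5.06, 4.96 and 5.39 (adjusted p = 4.19e-04, and 0.0577 in the fit to the 5 arrays). The other probe set of Tnf was not called. Il12a, Il12b and Nos2 did not pass the test, at 0.12 ± 0.26, -0.22 ± 0.26 and 0.32 ± 0.19 (SE). Il10, a cytokine that restrains inflammation, was at 4.70 and 4.64 against 7.07, 6.99 and 6.94, and Il1rn, the antagonist of the IL1 receptor, at 8.84 and 8.59 against 11.72, 10.89 and 11.11. Both were thus lower in the KC fraction, with differences of -2.33 and -2.53 (adjusted p = 1.14e-12 and 3.73e-10), and Il1r2, the decoy receptor, did not pass the test at -0.48 ± 0.24 (SE, adjusted p = 0.0876). When the arrays were centred on housekeeping genes, Il1r2 was called lower, at -0.81. By list, 11 of 23 pro-inflammatory genes were lower and 3 higher, and 10 of 21 genes of anti-inflammatory macrophages were lower and 4 higher (20.8% lower and 44.5% higher among all genes). The lower genes of the anti-inflammatory list include Mrc1, the mannose receptor, at -5.09, and Axl, a receptor for dying cells, at -5.68. The rises were led by Lif (1.10) in the first list and by Arg1 (4.01), which hepatocytes express, in the second. Il1rn was lower than in the LSECs of the model too, at -2.22 (adjusted p = 6.31e-08).

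**Figure D5:**
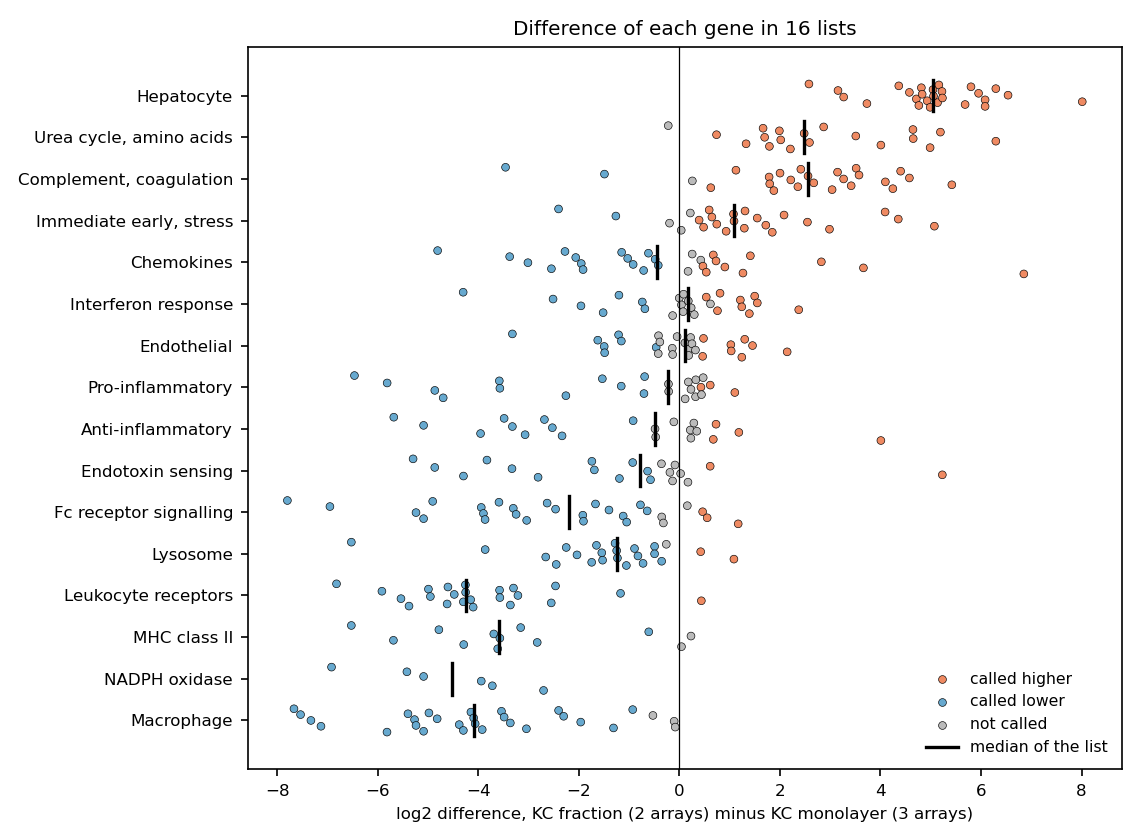
Log2 difference between KC fraction and KC monolayers for each measured gene of 16 lists (points, coloured by the call of limma; the bar is the median of a list). The hepatocyte list lies wholly above 0, the NADPH oxidase list wholly below it, and the cytokine lists reach to both sides.

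Of 28 chemokines 15 were lower and 10 higher, beside 20.8% and 44.5% of all genes. Pf4 (-4.81) and Ccl3 (-3.37), which macrophages and platelets release, were the largest falls. Ccl9 was the largest rise at 6.85, and it was at 13.22 to 13.91 in each hepatocyte and LSEC group mean. Cxcl9, which interferon gamma induces, was at 11.21 and 10.64 against 7.97, 6.83 and 6.99 in the monolayers, 2.06 above HM (adjusted p = 5.59e-06) and not different by the test from the LSECs (-0.56, adjusted p = 0.197). Of 25 interferon response genes 9 were higher and 7 lower (44.5% and 20.8% of all genes). Ifi27 (2.38) and Mx2 (1.55) were the largest rises, and Irf8 (-4.30), a transcription factor of myeloid cells, and Ifit3 (-2.51) the largest falls. The median of this list, 0.18, turned to -0.06 and -0.15 under the other scalings.

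Rises among genes not high in HM were smaller, and 15 of the 4027 reached 4 log2 units. Slc17a3, a urate and organic anion transporter of hepatocytes and kidney, was at 11.15 and 11.08 against 5.51, 6.11 and 5.21, and Cyp2c12, the female-specific cytochrome P450 of rat liver, at 12.36 and 12.70 against 8.0, 7.24 and 7.84. Both were above HM, by 1.64 and 2.93, and neither differed from the LSECs by the test (-0.09 and -0.22, adjusted p = 0.811 and 0.736). Because sex-linked genes differed between fraction and monolayers, the rise of Cyp2c12 over the monolayers cannot be told apart from a difference in sex. Mreg, Cyp3a9, Sdcbp2, Frk, Cidec, Gypc, Itgae and Mtfr1 had differences of 5.40 to 4.11. Frk, Cidec and Mtfr1, with HM means of 9.45, 9.68 and 9.73, lay just under the limit that divided the classes. Of the 4027 genes 504 reached the limit in another hepatocyte group, and 3375 were under it in all hepatocyte and LSEC groups. Of the 4027 genes 1363 were higher than in HM and 523 lower (23.6% and 21.6% of all genes). Their median was 0.23, beside 0.18 over all genes not high in HM. Since these genes were chosen for a limited HM value and a raised one in the fraction, a level above HM is partly fixed by that choice. Against the LSECs 225 were higher and 485 lower (5.35% and 9.73% of all genes).

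Of 24 immediate early and stress genes 19 were higher than in the monolayers and 2 lower, beside 44.5% and 20.8% of all genes, with a median of 1.08 (0.47 after cyclic loess, with 13 higher and 4 lower). Of the 24, 14 were high in HM, a class in which 64.6% of genes were higher. Hspa1a, the inducible HSP70 chaperone, was at 11.48 and 11.34 against 6.48, 6.31 and 6.21, and Myc, a growth transcription factor, at 11.94 and 11.84 against 8.25, 6.86 and 7.49. Myc did not differ from the LSECs by the test (-0.03, adjusted p = 0.952), whereas Hspa1a was 2.15 above them (adjusted p = 1.67e-08) and 1.51 above HM. The 2 lower genes were Fosb (-2.40) and Fos (-1.26), and another probe set of Fos was called the other way. Against HM 11 of the 24 were higher and 1 lower (23.6% and 21.6% of all genes), and against the LSECs 4 and 4 (5.35% and 9.73%).

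In 151 genes (1.06%) the KC fraction was higher than the monolayers, HM hepatocytes, and the hepatocytes and LSECs of its own model alike. These comparisons share the 2 KC fraction arrays, so 1 deviating array can enter all of them. The count was 86 without replicate 1 of the fraction and 92 without replicate 2, 249 and 228 without replicates 1 and 2 of the monolayers, and 92 genes were also called with array weights and under both other scalings. Cyp3a9, a cytochrome P450 of the PXR-driven family, had the largest margin, at 10.53 and 10.70 against group means of 5.59 in the monolayers, 8.75 in HM, 8.42 in hepatocytes and 8.74 in LSECs of the 3DHLK model. Sdcbp2, a syntenin scaffold protein, was at 11.49 and 11.38 where the same 4 means were 6.60, 9.24, 9.74 and 9.58. Then followed Hspa1a, Fam25a, Mx2, Nabp1, a protein of the single-strand DNA repair complex, Fosl1, an AP-1 factor, Rnf115, Gtse1 and Mdm2, the ubiquitin ligase that p53 induces. Mdm2 was at 12.80 and 12.59 against 9.90, 9.07 and 9.35 in the monolayers and 1.14 above the LSECs (adjusted p = 1.57e-04). Mx2 differed between the 2 arrays of the fraction, at 8.48 and 9.61.

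In 83 genes (0.584%) the KC fraction was above HM and above both other fractions of its model while the monolayers were above HM too, as they were in 25.4% of all genes, with 44.7% below. Lyve1, the hyaluronan receptor of lymphatic and sinusoidal endothelium that some macrophages carry, was at 7.98 and 7.91 in the fraction, 7.46, 8.07 and 7.62 in the monolayers, and 5.88, 5.83 and 5.88 as means in HM and in hepatocytes and LSECs of the 3DHLK model. It was 2.06 above the LSECs (adjusted p = 7.59e-09). Hmox1, given above, was 1.57 above them (adjusted p = 1.00e-07). Stfa2l2, Spetex2l2, Chchd4l1 and Spetex2l1 had large margins but differed between the 2 arrays, with 5.73 and 7.03 for Stfa2l2 and 5.24 and 7.11 for Chchd4l1. Cym, Nabp1, Calhm6 and Pde2a, a phosphodiesterase, complete the leading 10, with margins over the nearest group of 1.25 to 1.10. The count was 27 without replicate 2 of the fraction, 172 and 137 without replicates 1 and 2 of the monolayers, and 55 and 49 without replicates 1 and 2 of the LSECs. With array weights and under both other scalings 37 of the 83 were called.

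Part of the endothelial markers were higher in the KC fraction than in other groups of day 12. Of 27 measured 16 were higher than in HM and 1 lower (23.6% and 21.6% of all genes), and 12 were higher than in LSECs of the same model and none lower, beside 5.35% and 9.73% of all genes. Against hepatocytes of the same model 16 were higher and 5 lower (30.6% and 25.9% of all genes). The count above the LSECs was 6 without replicate 1 of the fraction and 5 without replicate 2, and 8 to 9 without any one LSEC array. Clec1b, a C-type lectin of sinusoidal endothelium, was at 8.05 and 8.69 with 7.32 in the LSECs, Pecam1, the junction protein CD31, at 6.94 and 6.71 with 6.19, and Tie1, an endothelial receptor kinase, at 6.12 and 6.11 with 5.39. Pecam1 and Tie1 were thus under the array medians of 7.41 to 7.53. With low values filtered out, which leaves fewer genes, 5 markers were above HM and 5 above the LSECs. The list mean was 7.29 and 7.35 in the fraction, 7.35 to 7.43 in the monolayers, 6.85 to 6.91 in the LSECs and 6.65 to 6.73 in HM. The LSEC arrays thus lay nearer to HM than to the monolayers in this list. Their hepatocyte marker list was at 13.23 to 13.26, above the 12.79 to 13.01 of hepatocytes of the model. LSECs are therefore named here by label and sort only. A level above theirs is not shown to be one above endothelial cells. Against the monolayers 8 of the 27 were higher, led by the fatty acid receptor Cd36 (2.15) and Gata4 (1.46), and 7 lower, led by the scavenger receptor Stab1 (-3.32) and Tie1 (-1.62). The monolayers thus carried these markers at a mean no lower than that of the fraction.

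For the lists that follow, the shares among all genes were 44.5% higher and 20.8% lower. Of 16 lymphocyte and erythroid markers 4 were higher and 6 lower, led downward by Cd4 (-6.04), which rat macrophages express, and Gzmb (-2.39). Of 28 proliferation genes 7 were higher and 6 lower, with Mki67, a marker of cycling cells, at 7.09 and 6.96 against 10.06, 9.58 and 9.17, and under cyclic loess 3 were higher and 10 lower. Of 22 scavenger, heme and iron genes 8 were higher and 9 lower, with Hamp, the iron hormone of hepatocytes, at 13.83 and 13.92 against 8.77, 7.76 and 8.67. Of 21 genes of macrophage lipid handling 13 were lower and 3 higher, with a median of -1.23 (-1.96 after cyclic loess), and the falls were led by Spp1 (-4.61) and the cholesterol exporter Abcg1 (-4.50). Of 21 housekeeping genes 10 were higher and 3 lower with a median of 0.48, above the 0.27 of all genes, and after cyclic loess 6 were higher and 12 lower with a median of -0.35.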

How the data were processed

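RNA from 23 samples had been amplified and hybridised to Affymetrix Rat Genome 230 2.0 arrays. The authors checked the arrays with Simpleaffy and processed them with RMA in R, and the deposited values are log2 RMA values, 1 per probe set. RMA makes the distributions of the probe signals alike between arrays and so removes differences in total signal. The probe set values still differed in spread. Their interquartile range was 2.35 to 2.90 in the monolayers, 2.71 and 2.94 in the KC fraction and 3.238 to 3.295 in HM. Of 31099 probe sets, 20826 had 1 gene symbol in the platform annotation, 436 had several and 9780 had none. Where a gene had several, the one with the largest average signal in the series was kept, which left 14217 genes.

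Samples were grouped by their titles. A model of 8 group means was fitted to all arrays with limma 3.58.1 in R 4.3.3 (15 residual degrees of freedom, 5 contrasts), and p-values were adjusted by the Benjamini-Hochberg method over all genes, with 0.05 as threshold. An exact permutation test of 2 arrays against 3 cannot go below p = 0.1. A gene was high in HM if its HM mean was at or above the 75th percentile of all genes. The number of arrays limits the precision, and arrays give no read depth. The steps were tested on simulated data.

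Genes were named by a rule. It took the 10 largest rises and falls of each class among called genes without overlap, the 10 largest margins above the other groups, the 2 largest called rises and falls of each of 26 gene lists, the genes the study names for these cells, Cd163, Xist and Eif2s3y. Genes named only by a locus or accession were skipped. Alb, Cd14, Cd68, Tyrobp, Nr1h3, Ccr1, Fcgr2b, Clec1b and Pecam1 were added after their values were seen. The members and lists were chosen with earlier results of these data known. Alternatives were a fit to the 5 KC arrays, array weights, a replicate block, other scalings, a filter on genes in the lowest 0.3 of mean level, other probe set rules, other limits for the HM class, and leaving out each array. Promoters came from RefSeq (GRCr8).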

Additional observations from a re-analysis of the deposited data

How the results depend on the processing

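The 8 counts reported were recomputed under 26 alternatives, where 162 values stayed within 1.5 times the reported one and 32 did not. The fit to the 5 KC arrays gave 4012 genes higher and 1893 lower than in the monolayers, 2268 of the higher ones not high in HM, and 318 and 1575 lower ones high and not high in HM. With low values filtered out, which leaves fewer genes, 1852 were lower, 1335 of them not high in HM, and 41 were above HM and both other fractions with the monolayers. Cyclic loess gave 1464 higher and 1253 lower genes among those high in HM, and 229 and 164 genes for the counts above 4 groups and above 3. Centring on housekeeping genes gave 4117 higher and 4525 lower genes, with 2251 higher and 3695 lower among those not high in HM and 830 lower among those high in it. With the mean of the KC fraction arrays added as another array, the counts above 4 and 3 groups were 255 and 150. With 8 as the HM limit, 4622 and 1701 genes were higher and 1340 and 1613 lower, high and not high in HM, because more genes counted as high. The cause of the other changes was not tested. Without any one array, the higher genes numbered 5429 to 6489 (2059 to 2485 high in HM, 3370 to 4293 not) and the lower ones 2517 to 3119 (411 to 621 high in HM, 2077 to 2653 not), while the counts above 4 and 3 groups ran from 86 to 249 and from 27 to 172. Ctsl was reversed by cyclic loess, from 0.43 to -0.49. Ctsl, Mapk13, Ticam1, Csf3, Cd52, Cdc20 and Il6 were not called by the fit to the 5 arrays.

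Same-numbered arrays of the KC fraction and the monolayers had deviations that correlated at 0.244 and 0.218, but with 2 pairs the numbers were not shown to pair the arrays. With the replicate number as a block, 6226 genes were higher (2278 high in HM, 3948 not) and 2871 lower (498 and 2373), and the counts above 4 and 3 groups were 130 and 64.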
